A study of Mus musculus with 2 samples.

Results

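The tumour necrosis factor (TNF) superfamily was followed in sorted mouse alveolar macrophages, the macrophages that live in the airspaces of the lung. Members were taken by symbol: every gene named Tnfsf or Tnfrsf with a number, plus Tnf, Lta, Ltb, Ltbr, Fas, Fasl, Cd40, Cd40lg, Cd27 and Cd70, where a row of the array carried that symbol alone. The rule found 39 of 22180 genes, 15 for ligands and 24 for receptors, each measured by 1 row. Rows that joined a family symbol to other symbols, 2 in all, were left out, and 2 ligand genes of the family, Tnfsf12 and Tnfsf13, had no row of their own.

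One array held RNA labelled PIKfyve KO, from adult C57BL6 mice described as PIKfyve f_f_lysm_cre, and the other held RNA labelled wild type, from littermates described as PIKfyve f_f. Both genotypes therefore carry the f_f alleles, and the Cre recombinase of the knockout is driven from LysM, the lysozyme 2 locus, which is active in neutrophils and monocytes as well as in macrophages. Lung cells were freed with collagenase and sorted as DAPI-negative cells carrying Siglec-F and CD11c. RNA (10 ng) was amplified before labelling, and the number of mice behind each sample is not in the labels.

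With 1 array per genotype no difference was tested and no value has a replicate error. Differences are PIKfyve KO minus wild type on the log2 scale of the deposited values. Pikfyve, the targeted lipid kinase, read 5.95 in the array labelled PIKfyve KO and 5.68 in the array labelled wild type. Whether its row covers the floxed exons is not known here, so this value is no check of the genotypes, and the arrays are called by their labels. As a floor for detection, the 95th percentile of 1432 olfactory, vomeronasal and taste receptor genes was 5.31 in the array labelled PIKfyve KO and 5.37 in the array labelled wild type, and is called the background level. Defining genes of alveolar macrophages were well above it on both arrays, among them Siglecf (8.54 in PIKfyve KO, 9.27 in wild type) and Pparg (10.68 in PIKfyve KO, 10.53 in wild type).

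Ligands of this superfamily are mostly trimeric proteins made on the cell surface, and several, TNF among them, are released by proteases. Their receptors fall into those with a death domain, which can trigger apoptosis through FADD and caspase-8, those that bind TRAF adaptors and activate NF-kB and MAP kinases, and decoys that bind a ligand and pass on little or no signal. Macrophages are a main source of TNF, which drives inflammation, and of BAFF, the product of Tnfsf13b, which keeps B cells alive.

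The family differed between the arrays in a few members. Ligand genes Tnf and Tnfsf13b were 3.46-fold and 2.35-fold lower in the array labelled PIKfyve KO. The receptor genes Tnfrsf22, Tnfrsf23 and Tnfrsf26, which lie next to each other in the mouse genome, read 1.57-fold, 1.89-fold and 2.16-fold higher. The main receptors for TNF, for the lymphotoxins and for CD40 ligand were all less than 1.5-fold apart. A total of 14 members, among them Fasl, Cd40lg and Cd70, were at or below background on both arrays.

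Promoters of 3 of these genes are shown, because they stand for the lower ligand genes and the higher receptor cluster. Each run gives the 250 bases before the gene start on the gene's own strand, 5′ to 3′, from RefSeq (GRCm38.p6). Capitals mark matches on either strand to GGGNNNNNCC (an NF-kB-type motif), TGANTCA (AP-1) and TATAAA; no matches of different motifs overlapped in these runs. Tnfrsf22 and Tnfrsf26 are named only.
Tnf, chr17:35202008-35202257, minus strand: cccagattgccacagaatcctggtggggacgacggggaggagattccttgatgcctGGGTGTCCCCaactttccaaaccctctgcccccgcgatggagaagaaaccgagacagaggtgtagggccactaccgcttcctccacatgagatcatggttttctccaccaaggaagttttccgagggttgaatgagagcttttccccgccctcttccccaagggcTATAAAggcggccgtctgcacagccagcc
Tnfsf13b, chr8:10006383-10006632, plus strand: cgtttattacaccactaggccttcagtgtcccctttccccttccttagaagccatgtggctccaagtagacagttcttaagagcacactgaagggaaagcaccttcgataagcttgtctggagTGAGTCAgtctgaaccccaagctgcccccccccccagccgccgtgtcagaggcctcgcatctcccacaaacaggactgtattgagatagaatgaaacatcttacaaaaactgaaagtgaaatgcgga
Tnfrsf23, chr7:143685876-143686125, minus strand: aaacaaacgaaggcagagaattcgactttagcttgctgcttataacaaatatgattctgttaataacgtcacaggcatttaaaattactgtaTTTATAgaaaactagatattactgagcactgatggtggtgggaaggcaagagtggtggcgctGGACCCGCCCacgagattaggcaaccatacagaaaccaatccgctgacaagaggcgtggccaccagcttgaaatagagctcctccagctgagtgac

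The Tnf promoter held 1 NF-kB-type match, whose first base is 194 bases before the start, and a TATA match 29 bases before it. Tnfsf13b has 2 start sites in the table, and the one shown was chosen because its window holds the AP-1 match, 127 bases before the start; the other window held none of the 3 motifs. The Tnfrsf23 promoter held 1 NF-kB-type match, 96 bases before the start, and a TATA match 158 bases before it. Of the members, 30 had a promoter in the table, and 20 of them held the NF-kB-type motif, 5 the AP-1 motif and 6 the TATA motif in at least 1 window. Among all 32851 promoter windows of the same length, 45.8% held the NF-kB-type motif, 6.75% the AP-1 motif and 12.4% the TATA motif. These shares are per window, while the member counts are per gene over all its windows, so they are not like for like. These matches describe the letters and are no evidence that a factor binds there.

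**Figure D1:**
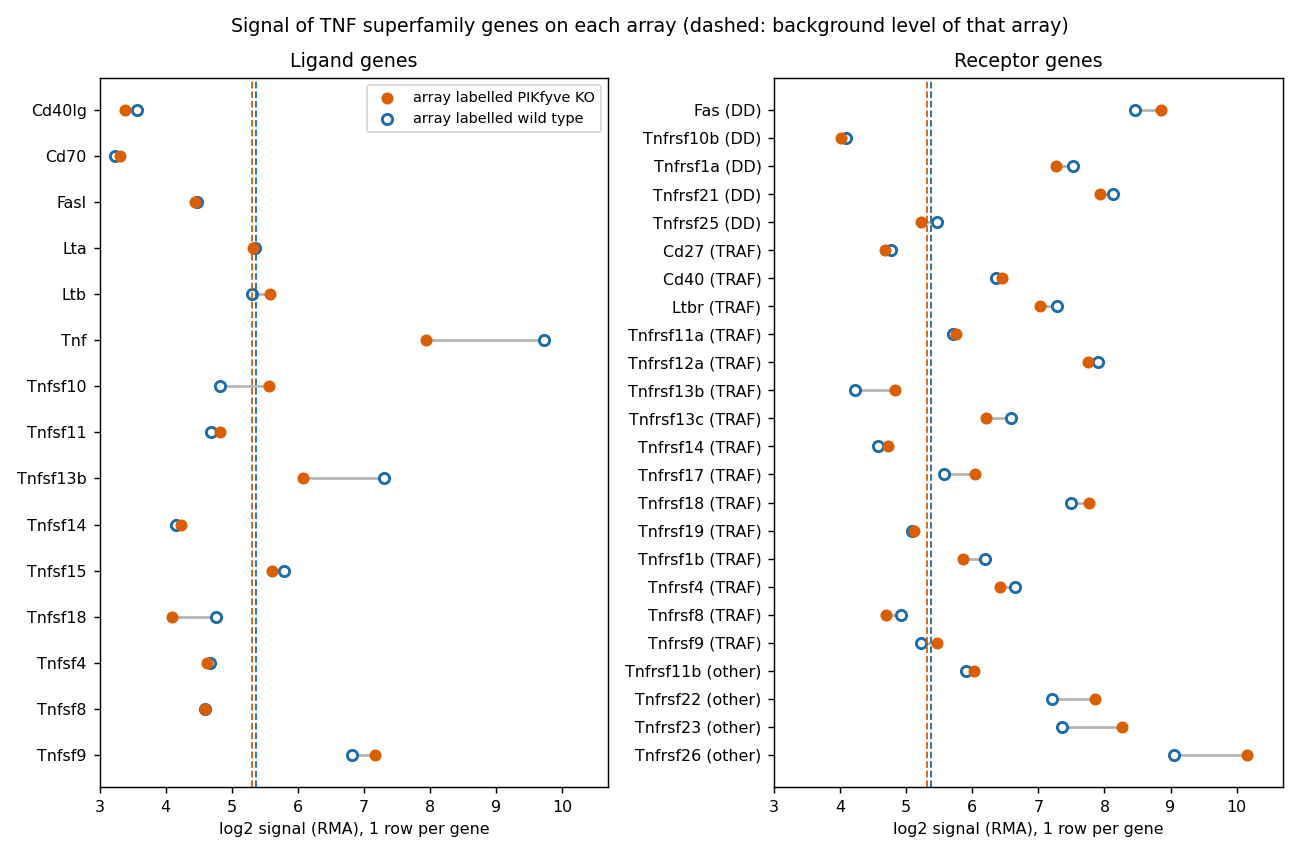
Log2 signal of the 15 ligand genes and 24 receptor genes (x axis) in the array labelled PIKfyve KO (filled orange) and the array labelled wild type (open blue), with the background level of each array as a dashed line. DD marks death domain receptors, TRAF those that bind TRAF adaptors, and other marks decoys and Tnfrsf26. Tnf and Tnfsf13b are displaced to the left in PIKfyve KO and Tnfrsf22, Tnfrsf23 and Tnfrsf26 to the right.

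Counts over the family were read beside all genes. A gene entered a count when the mean of its arrays reached 5.13, the median of all rows. This left 25 of the 39 members and 12516 of 22180 genes. Tnfsf10, with a mean of 5.19, was the member just inside, and Tnfrsf19, with 5.10, the one just outside. Of the 25 members, 4 were at least 1.5-fold higher in the array labelled PIKfyve KO (16.0%), where 4.45% of all genes that passed were. Tnfsf10, one of the 4, passed through its PIKfyve KO value of 5.56, while its wild type value of 4.83 was within background. The others were the neighbouring genes Tnfrsf22, Tnfrsf23 and Tnfrsf26, whose rows may share signal, so the 16.0% does not rest on 4 independent genes. A further 2 members were at least 1.5-fold lower (8.0%), where 2.66% of all genes were. At 2-fold, 1 member was higher and 2 were lower, against 0.927% and 0.336% of all genes. Between the arrays 19 members were less than 1.5-fold apart, with differences between -0.38 and 0.47. With the arrays centred on their medians the 1.5-fold split of all genes moved to 735 higher and 219 lower, where the values as deposited gave 557 and 333, while the members stayed at 4 and 2. The median difference of the 25 members was 0.05, and that of all genes that passed was 0.00. Of all genes that passed, 48.9% read higher and 49.6% lower, and these shares, with 4.45% and 2.66% at 1.5-fold, are set beside the lists that follow.

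As a measure of scatter, the local spread was taken as the median absolute deviation of differences among genes of like level, scaled to match an SD. It ran from 0.20 to 0.33 and holds both noise and real differences. Of the 25 members, 12 differed by less than 1 local spread and 3 by at least 3. Those 3 were Tnf, Tnfsf13b and Tnfrsf26.

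**Figure D2:**
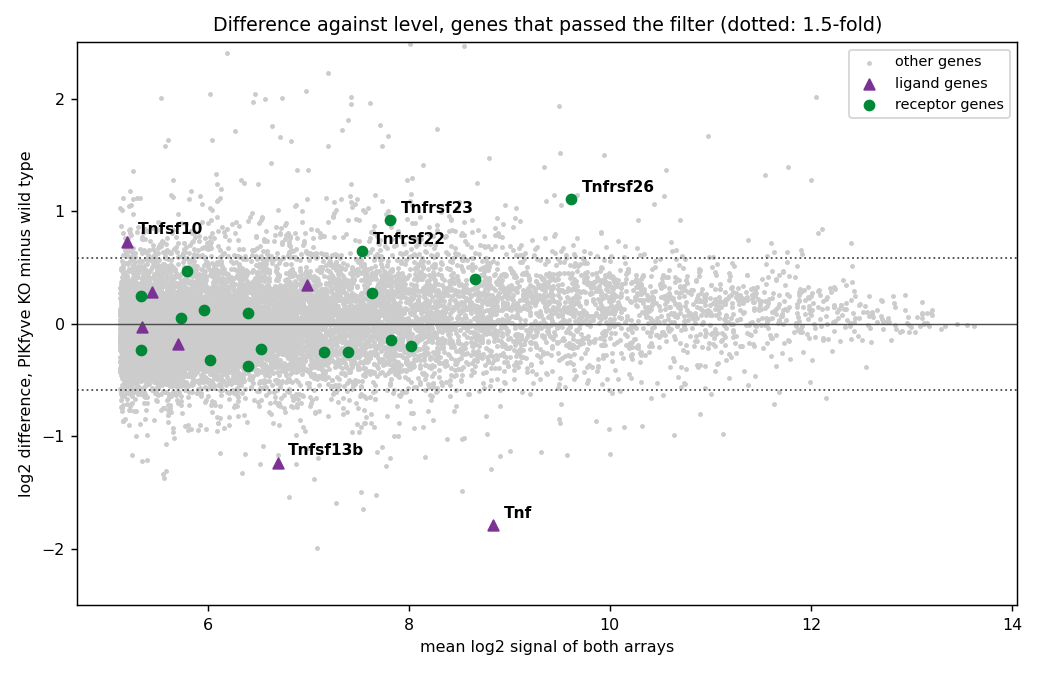
Log2 difference, PIKfyve KO minus wild type (y axis), against the mean log2 signal of both arrays (x axis) for the 12516 genes that passed the filter; triangles are ligand genes, circles receptor genes, grey points other genes, of which 9 lie beyond the axis. The 6 labelled members lie outside the dotted lines at 1.5-fold, with Tnf near the lower edge of all genes.

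Tnf, the inflammatory cytokine itself, read 7.94 in the array labelled PIKfyve KO and 9.73 in the array labelled wild type. This is 3.46-fold lower, 5.73 local spreads, and only 1 of the 12516 genes had a lower difference. Tnfsf13b (BAFF) read 6.08 in PIKfyve KO and 7.31 in wild type, 2.35-fold lower and 4.49 local spreads, at place 18 from the lowest difference. Both genes were above background on both arrays. In bulk RNA of sorted cells, fewer cells that express a gene and less RNA per cell cannot be told apart.

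Lta and Ltb, which encode the lymphotoxin chains and flank Tnf, were near the floor and close to level. Lta read 5.33 in PIKfyve KO, just above background, and 5.36 in wild type, within it. Ltb read 5.58 in PIKfyve KO and 5.31 in wild type, where it was at background. Measured from the background level it was 1.16-fold higher. The other measured neighbours in RefSeq gene order (GRCm38.p6), 5 on each side of the trio, included 9 that passed the filter. Their differences ran from -0.40 (Bag6) to 0.43 (Lst1), and none was 1.5-fold apart. Of all genes 4.45% were 1.5-fold higher and 2.66% lower, so few would be among any 9 genes. Around Tnfsf13b, 7 of 10 neighbours passed, with differences from -0.23 (Arglu1) to 0.29 (Lig4). Lig4 was near the floor, at 5.46 in PIKfyve KO and 5.17 in wild type, within background.

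Among the other ligand genes, Tnfsf10, which encodes the death ligand TRAIL, read 5.56 in PIKfyve KO and 4.83 in wild type. It is counted among the 4 higher members on its difference of 0.73, but the wild type value is within background. Measured from that level it was only 1.14-fold higher. Tnfsf9, the ligand of 4-1BB, read 7.16 in PIKfyve KO and 6.82 in wild type, a difference of 0.34. Tnfsf15, which encodes TL1A, the ligand of death receptor 3, read 5.61 in PIKfyve KO and 5.79 in wild type. Those last 2 differences are 1.20 and 0.69 local spreads.

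The remaining 8 ligand genes were at or below background on both arrays. They are Fasl, Cd40lg, Cd70, Tnfsf4 (OX40 ligand), Tnfsf8 (CD30 ligand), Tnfsf11 (RANKL), Tnfsf14 (LIGHT) and Tnfsf18 (GITR ligand), ligands made mainly by lymphocytes, dendritic cells or stromal cells. Tnfsf8 read 4.59 on both arrays. Tnfsf18 read 4.10 in PIKfyve KO and 4.76 in wild type, and no fold is given because neither value is above background. The receptor gene Tnfrsf13b, which encodes TACI, a BAFF receptor of B cells, also read below background on both arrays, at 4.83 in PIKfyve KO and 4.23 in wild type. These 2 were the only ones of the 14 members below background whose values lay 1.5-fold apart, and 16.8% of the sensory receptor genes that set the background level lay as far apart. The central 95% of the sensory receptor genes ran from -0.96 to 0.88.

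The death domain receptors were close to level. Tnfrsf1a, the main TNF receptor of most cells, read 7.27 in PIKfyve KO and 7.53 in wild type, a difference of -0.25. Fas, which triggers apoptosis when bound by Fas ligand, read 8.86 in PIKfyve KO and 8.46 in wild type, a difference of 0.40. Tnfrsf21 (death receptor 6) read 7.93 in PIKfyve KO and 8.12 in wild type. These 3 differences were between 0.62 and 1.29 local spreads. Tnfrsf25 (death receptor 3) was near the floor, at 5.22 in PIKfyve KO, within background, and 5.46 in wild type. Tnfrsf10b, the one mouse TRAIL receptor with a death domain, was below background, at 4.02 in PIKfyve KO and 4.09 in wild type.

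Of the 15 receptors that bind TRAF adaptors, 10 passed the filter and none was 1.5-fold apart. Of all genes 4.45% were 1.5-fold higher and 2.66% lower, so few would be among any 10 genes. Tnfrsf1b, the TNF receptor prominent on immune cells, read 5.86 in PIKfyve KO and 6.18 in wild type, a difference of -0.32. So both TNF receptor genes read lower by less than 1.5-fold, next to the 3.46-fold difference of their ligand gene. Ltbr, the lymphotoxin beta receptor, read 7.03 in PIKfyve KO and 7.28 in wild type. Cd40, through which T cells activate macrophages and B cells, read 6.45 in PIKfyve KO and 6.35 in wild type. Tnfrsf12a (Fn14), the receptor of TWEAK, read 7.75 in PIKfyve KO and 7.90 in wild type, and Tnfrsf11a (RANK) 5.76 in PIKfyve KO and 5.71 in wild type.

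The receptors of BAFF split in direction. Tnfrsf13c, the BAFF receptor of B cells, read 6.21 in PIKfyve KO and 6.59 in wild type, a difference of -0.38. Tnfrsf17 (BCMA), the receptor of plasma cells, read 6.03 in PIKfyve KO and 5.56 in wild type, a difference of 0.47. Both were under 2 local spreads, at 1.43 and 1.81. In the list of B cell markers, 7 of 9 measured genes passed and 0 were 1.5-fold apart (4.45% of all genes higher and 2.66% lower). The summed linear signal of the list was 570.5 in PIKfyve KO and 617.7 in wild type. Fcer2a and Cr2, of that list, were at background on both arrays.

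Receptors best known from activated T cells also stayed within 1.5-fold. Tnfrsf18 (GITR) read 7.77 in PIKfyve KO and 7.49 in wild type. Tnfrsf4 (OX40) read 6.42 in PIKfyve KO and 6.65 in wild type, opposite in direction. Tnfrsf9 (4-1BB) read 5.47 in PIKfyve KO and 5.22 in wild type, where it was within background. Measured from that level it was 1.07-fold higher. Most markers of T and NK cells that passed read higher on the same array. Of 12 measured, 10 passed and 8 of them read higher (48.9% of all genes), with 2, Gzma and Cd3d, at least 1.5-fold higher (4.45% of all genes). The summed signal of the list was 5049 in PIKfyve KO and 4538 in wild type. Most of that sum came from Cd2, which was close to level (11.77 in PIKfyve KO, 11.74 in wild type). Cd8a, Ncr1 and Il7r were at background on both arrays, and Cd4 and Gzmb in wild type. The part of these cells in the receptor values was not tested. Cd27, Tnfrsf8 (CD30), Tnfrsf14 (HVEM) and Tnfrsf19 were at or below background on both arrays, between 4.56 and 5.11.

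Higher receptor values came from a cluster of 3 genes found in the mouse. Tnfrsf22 and Tnfrsf23 encode decoy receptors that bind TRAIL and lack a working death domain, and Tnfrsf26 encodes a related protein whose role is less clear. Tnfrsf26 read 10.16 in PIKfyve KO and 9.06 in wild type, a difference of 1.11 or 3.69 local spreads. Tnfrsf23 read 8.27 in PIKfyve KO and 7.35 in wild type, a difference of 0.92 or 2.89 local spreads. Tnfrsf22 read 7.86 in PIKfyve KO and 7.21 in wild type, a difference of 0.65 or 2.08 local spreads. Each stood above background on both arrays, and among the 12516 genes they took places 86, 146 and 402 from the highest difference. These genes resemble each other in sequence, so their rows may share signal and are not 3 independent measurements.

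Genes on either side of the cluster lay closer to level. Among the 5 measured neighbours on each side, 9 passed the filter. Their differences ran from -0.27 (Mrgpre) to 0.28 (Slc22a18), with a median of -0.07. Of these, 0 were 1.5-fold apart, where 4.45% of all genes were higher and 2.66% lower, so few would be among any 9 genes. Cdkn1c, Nadsyn1 and Dhcr7 read between 5.61 and 5.75 on both arrays, close to the background level. Cars, next to Tnfrsf26, read 6.05 in PIKfyve KO and 6.08 in wild type, and Osbpl5, next to Tnfrsf23, was within background on both arrays. Tnfrsf11b, the remaining decoy, encodes osteoprotegerin, which binds RANKL and TRAIL. It read 6.03 in PIKfyve KO and 5.90 in wild type, a difference of 0.13.

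**Figure D3:**
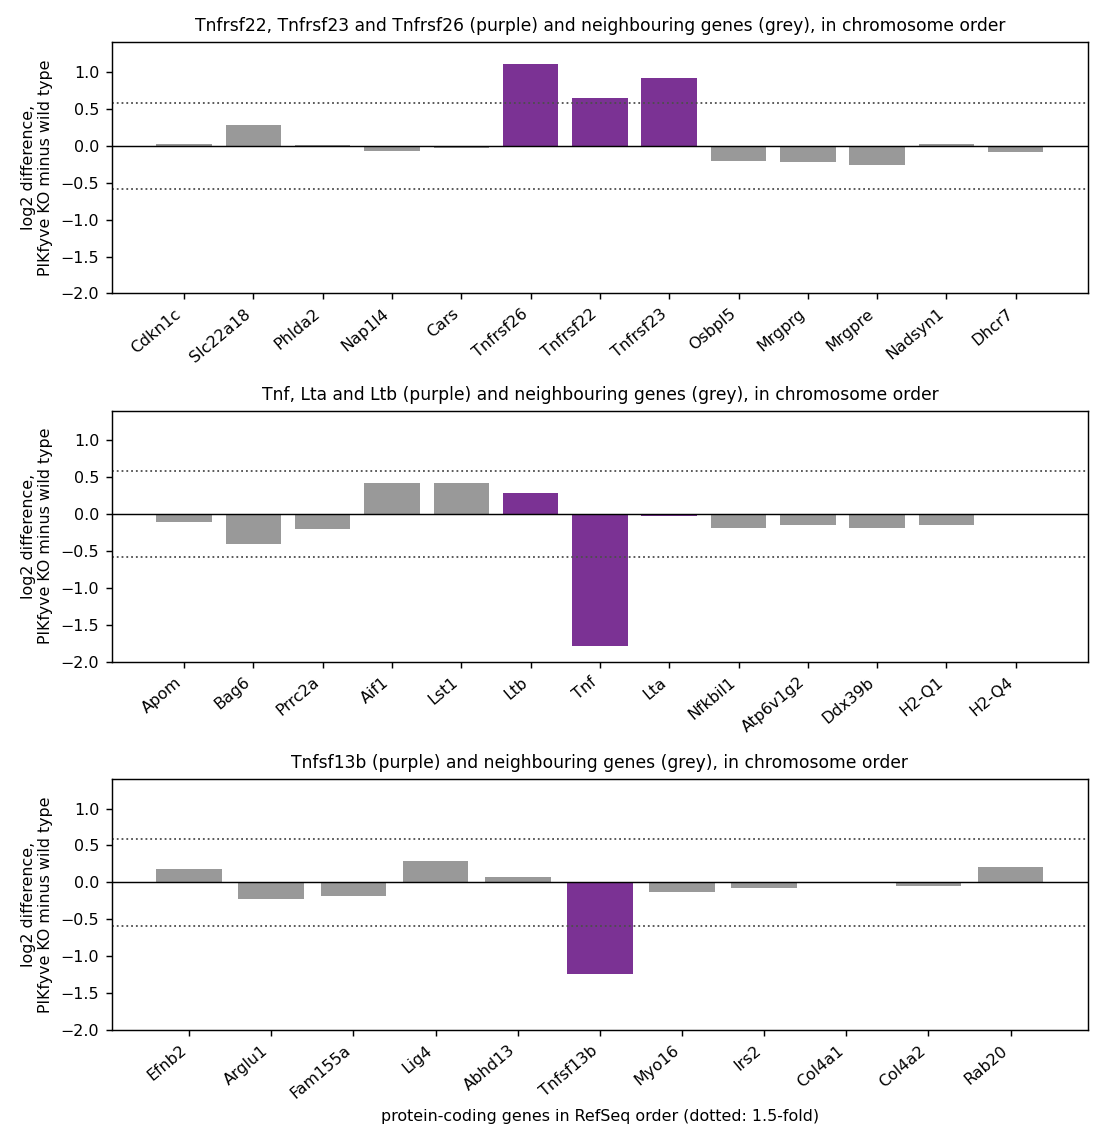
Log2 difference, PIKfyve KO minus wild type (bars), for family members (purple) and the 5 nearest measured protein-coding genes on each side (grey), in RefSeq order, with dotted lines at 1.5-fold. Tnfrsf22, Tnfrsf23 and Tnfrsf26 are above the upper line and Tnf and Tnfsf13b below the lower one, while no grey bar crosses either line.

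Signalling genes below the receptors were mostly level. Of 27 measured adaptors and signalling genes, 25 passed, 2 were at least 1.5-fold higher as read (4.45% of all genes) and 0 lower (2.66%), and the median difference was -0.02, or 0.04 after median centring. Ripk3, the kinase that drives necroptosis, read 7.10 in PIKfyve KO and 6.38 in wild type (1.65-fold higher). Tab1, a partner of the kinase TAK1, read 5.92 in PIKfyve KO and 5.27 in wild type, within background. Measured from that level it was 1.46-fold higher, which leaves Ripk3 as the one gene past 1.5-fold. Mlkl, the membrane effector that RIPK3 activates, differed by 0.36. Rnf31, Ikbkg and Tab2 of the same list differed by more in the other direction, by -0.49, -0.41 and -0.38. Of the 25 genes, 11 read higher and 14 lower (48.9% and 49.6% of all genes).

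Most genes of the NF-kB system read lower by small amounts. All 14 measured subunits and inhibitors passed, and 13 of them read lower in PIKfyve KO, with a median of -0.27, where 49.6% of all genes read lower. At least 1.5-fold lower was 1 gene of the 14, too few to set against the 2.66% of all genes. That gene was Tnip2, a ubiquitin-binding inhibitor of NF-kB, which read 6.63 in PIKfyve KO and 7.27 in wild type (1.56-fold). With median centring none reached 1.5-fold, and 11 of 14 read lower. Nfkbia, the inhibitor gene that NF-kB itself induces, read 10.42 in PIKfyve KO and 10.98 in wild type, a difference of -0.56. Nfkbiz differed by -0.57 and Tnfaip3, which encodes the ubiquitin editor A20, by -0.32. Nfkbia and Tnfaip3 also belong to the next list.

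Inducible NF-kB target genes read lower in 14 of the 19 that passed, with a median difference of -0.47, and 6 were at least 1.5-fold lower and 0 as much higher. Their share compares with 2.66% of all genes. The chemokine gene Cxcl2, whose product attracts neutrophils, differed by -1.16 (2.24-fold lower in PIKfyve KO). Ccl2, which attracts monocytes, read 8.74 in PIKfyve KO and 9.88 in wild type (2.20-fold lower). Cxcl10 was 1.75-fold, the transcription factor gene Irf1 1.72-fold, and the cytokine gene Il1a 1.64-fold lower, and the adhesion gene Icam1 differed by -0.59. Others read higher: Ccl5 read 9.07 in PIKfyve KO and 8.53 in wild type, and Sod2, which encodes a mitochondrial superoxide dismutase, differed by 0.30.

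The machinery that sheds or exports TNF was near level, with a median difference of -0.01 over 12 genes, or 0.06 after median centring. Only Rhbdf1, an iRhom that escorts the sheddase, was 1.5-fold apart, at 5.45 in PIKfyve KO and 6.17 in wild type (1.65-fold lower). Adam17, the TNF sheddase, read 6.54 in PIKfyve KO and 6.87 in wild type, and Rhbdf2, the iRhom prominent in myeloid cells, 5.81 in PIKfyve KO and 6.10 in wild type. Of 12 genes that act on the Tnf mRNA, 8 read lower (49.6% of all genes), with a median difference of -0.13. After median centring 7 read lower, with a median of -0.06. At least 1.5-fold lower was 1 gene of the 12, too few to set against the 2.66% of all genes. That gene was Zfp36, which encodes tristetraprolin, a protein that promotes decay of the Tnf message; it read 9.68 in PIKfyve KO and 10.60 in wild type (1.89-fold lower). Map3k8 (TPL2) and Mapkapk2 (MK2), kinases needed for TNF output, differed by -0.58 and -0.56. The kinase gene Mapk14, of the same list, went the other way, at 6.57 in PIKfyve KO and 6.11 in wild type, a difference of 0.46.

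Immediate early genes, which respond to stimuli and also to tissue dissociation, were lower on the same array as Tnf. All 18 passed, 16 were lower in PIKfyve KO, 9 by at least 1.5-fold, and the median difference was -0.57; of all genes 49.6% were lower and 2.66% by at least 1.5-fold. Median centring and an offset of 32 on the linear scale each left 5 of the 9, and Klf4, Jund, Dusp1 and Junb then lay under 1.5-fold. Egr2 read 8.31 in PIKfyve KO and 9.49 in wild type (2.26-fold lower), and Ier2 8.04 in PIKfyve KO and 9.05 in wild type (2.01-fold lower). Zfp36, which is in this list too, Klf2 (1.73-fold), Nr4a1 (1.66-fold), Klf4 (1.56-fold), Jund (1.54-fold), Dusp1 (1.51-fold) and Junb (a difference of -0.59) made up the rest of the 9. Monocyte markers were lower as well. Of 9 measured, 7 passed, 5 were lower and 4 at least 1.5-fold lower (2.66% of all genes). The summed linear signal of the list was 1898 in PIKfyve KO and 2434 in wild type. Its largest part came from S100a4, which was close to level (10.14 in PIKfyve KO, 10.09 in wild type). F13a1 and Vcan were at background on both arrays. Neutrophil markers were split. Of 12, all of which passed, 8 were higher and 4 lower (48.9% and 49.6% of all genes), 4 at least 1.5-fold higher and 1, Csf3r, at least 1.5-fold lower (4.45% and 2.66% of all genes). The summed signal of the list was 9420 in PIKfyve KO and 6937 in wild type, most of it from S100a8 and S100a9. The part of cell handling or of these cells in the lower values of Tnf, Tnfsf13b and the NF-kB targets was not tested, and with 1 array a genotype, handling and genotype cannot be told apart.

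**Figure D4:**
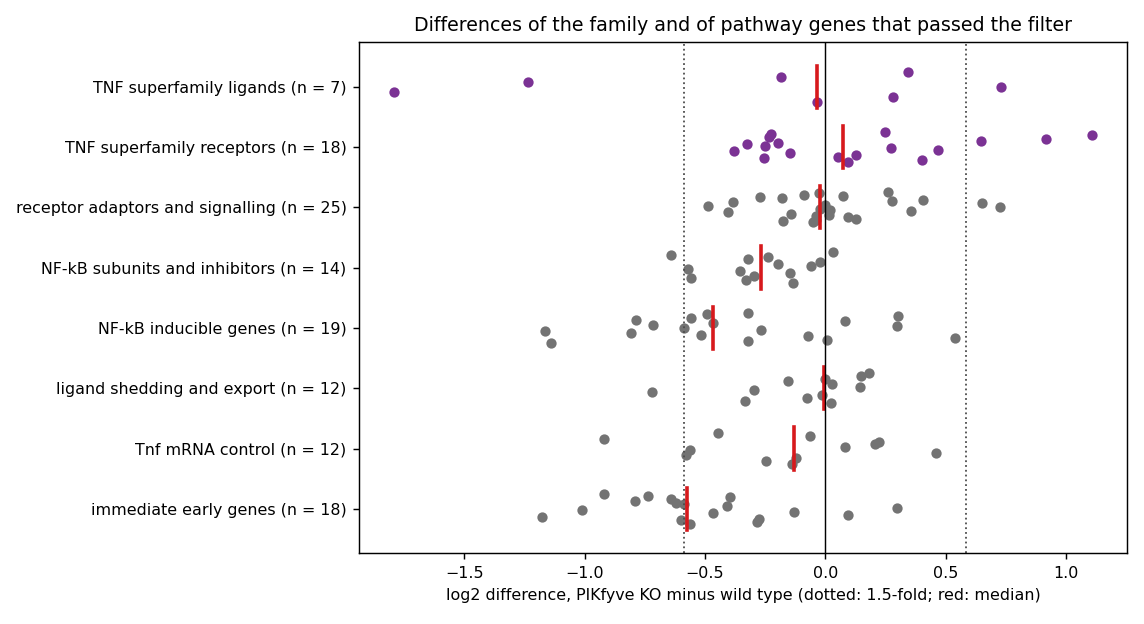
Log2 difference, PIKfyve KO minus wild type (x axis), of each gene that passed the filter, by list, with the list's median in red and dotted lines at 1.5-fold. The family's ligands and receptors (purple) have medians of -0.03 (0.03 after median centring) and 0.07 with a few members far out, and NF-kB inducible genes and immediate early genes have medians of -0.47 and -0.57.

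Set by pairs, ligand and receptor genes differed as follows. For TNF the ligand gene was 3.46-fold lower and the receptor genes Tnfrsf1a and Tnfrsf1b 1.19-fold and 1.25-fold lower. With TRAIL, the decoy genes Tnfrsf22 and Tnfrsf23 read higher, the ligand gene Tnfsf10 lay at background in wild type, and Tnfrsf10b at background on both arrays. For 4-1BB the ligand gene Tnfsf9 was 1.27-fold higher and the receptor gene Tnfrsf9 near the floor. Of the Fas pair, Fas was 1.32-fold higher and Fasl at background.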

How the data were processed

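The authors deposited 41345 rows of log2 values, 1 column per array, made with RMA (background correction, a common distribution, a summary per row) per the submitters' processing notes, with no version, annotation or build named. RMA's usual log2 output matches the range, 0.83 to 13.78 in the array labelled PIKfyve KO and 0.77 to 13.86 in the array labelled wild type. Rows were named through the platform's gene annotation: 23521 had 1 symbol, 1814 several and 16010 were not listed. Rows of a gene were averaged. The local spread used 20 bins of mean level. Analysis used Python 3.11.15, numpy 2.4.6, pandas 2.3.3, statsmodels 0.14.6 (loess) and matplotlib 3.10.9. The code was checked on simulated data with less scatter and larger differences than most here, which does not test the calls in these data. No test was run, since 1 array per genotype leaves no residual degrees of freedom, and precision is limited by the number of arrays.

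The members and gene lists were chosen with earlier results of these data known. Named were all members above background on an array, and in each pathway list the genes at least 1.5-fold apart or, if fewer than 2, the 2 farthest apart; further named genes, the neighbours and the promoters shown were chosen after their values were seen. Lists of markers for dendritic cells, epithelium, endothelium, fibroblasts, and eosinophils, mast cells and basophils had medians of 0.04, 0.16, 0.04, 0.13 and 0.37, that of alveolar macrophages 0.14. These medians hide larger differences. Of 13 epithelial genes that passed, 3 were at least 1.5-fold higher and 1, Epcam, was 3.98-fold lower. Of 12 alveolar macrophage genes, 1 was 1.5-fold higher and 2, Siglecf (1.66-fold) and Krt79 (1.97-fold), were lower. Of 12 eosinophil, mast cell and basophil genes only 3 passed, with 1 higher and 1 lower. Of all genes, 4.45% were higher and 2.66% lower. The higher one of those 3, Prg2, read 5.76 in PIKfyve KO and 4.71 in wild type, within background. Measured from that level it was 1.31-fold higher. The median of 0.37 is the difference of Epx, which read 5.33 in PIKfyve KO, just above background, and 4.95 in wild type, within it. Alternatives were other filters, scalings, row choice and thresholds.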

Additional observations from a re-analysis of the deposited data

How the results depend on the processing

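No replicate was left out, since each genotype has 1 array, and no value has a test to keep or lose. No paired analysis was possible because there is 1 array per genotype. Signal over background is the only depth, and it limits the 19 members at or below background on at least 1 array.

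Over 5 scalings or row choices, 0 members that were at least 1.5-fold apart changed sign, and 4 of 195 values of the 39 members moved by over 1 local spread, all with the offset of 32. The difference of Tnf stayed between -1.85 and -1.67, Tnfsf13b between -1.23 and -0.94, Tnfrsf26 between 1.04 and 1.17, Tnfrsf23 between 0.80 and 0.98, Tnfrsf22 between 0.55 and 0.71 and Tnfsf10 between 0.39 and 0.80; Tnfrsf22 and Tnfsf10 fell under 1.5-fold with the offset. The count of members at least 1.5-fold higher (4) was 2 with the offset, 1 at 2-fold and 1 at 3 local spreads, where the count of lower members stayed at 2. The median of ligands (-0.03) was -1.23 over the few left by a filter at the 75th percentile, and the mean was -0.27.

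The alternatives for pathway lists were added after the data were seen, and the counts below are of genes at least 1.5-fold higher or lower unless another threshold is named. With the 75th percentile filter, 1 adaptor gene was higher and 0 shedding genes lower. Median centring left 0 NF-kB system genes and 5 immediate early genes lower, and put 1 NF-kB inducible gene higher. Quantile normalisation and loess centring each gave 2 lower NF-kB system genes and 2 lower genes of Tnf mRNA control. The offset left 0 adaptor genes higher, and 0 NF-kB system, 0 shedding and 5 immediate early genes lower. At 2-fold, 0 adaptor genes were higher, and 0 NF-kB system, 0 shedding, 0 Tnf mRNA control, 2 NF-kB inducible and 2 immediate early genes lower. At 3 local spreads, 0 adaptor genes were higher, and 0 NF-kB system, 0 shedding, 2 NF-kB inducible and 3 immediate early genes lower.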
